A study of Mus musculus with 6 samples.

Results

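DNA replication genes encode the proteins that mark origins, open them, copy the DNA and supply its building blocks. The 57 genes chosen here were a fixed list of names, and a gene was taken as measured where a probe set of the array was paired with its symbol alone. All 57 were measured, by 60 probe sets of 15648 in the deposited table, and are 57 of the 10261 genes measured in all. RNA had been hybridised to 6 MoGene-1_0-st arrays of Affymetrix. Of these, 3 carry the label keratinocytes and 3 the label MEF, each numbered as biological replicates. The keratinocytes, the main cells of the epidermis, were taken from the back skin of newborns on the day of birth (P0) and cultured in a keratinocyte medium. The mouse embryonic fibroblasts (MEFs) came from E13.5 embryos without head and inner organs, pooled within a preparation per the isolation protocol, and were cultured in DMEM with serum. No treatment was applied to either group. For the MEFs the methods name C57BL/6J embryos, whereas the isolation protocol names DR-4 as the desired strain, and no source used here names a strain for the keratinocytes. Age, tissue, medium and any difference of growth state between the groups cannot be told apart from cell type in this design.

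The cell type labels went against the marker genes. Cdh1, which encodes E-cadherin, had log2 signals of 3.33, 2.16 and 3.26 on the keratinocyte-labelled arrays and 8.62, 8.59 and 8.73 on the MEF-labelled arrays. Vim, which encodes the mesenchymal filament protein vimentin, had 11.93, 11.97 and 12.03 and 3.81, 3.92 and 3.78 in the same order. For both genes the groups lay apart (two-sided exact permutation p = 0.1, the smallest that 3 arrays against 3 allow). Of 7 epithelial markers, 7 were higher on the MEF-labelled arrays, with a summed linear signal of 13122 to 13444 against 51.9 to 60.1, and of 7 mesenchymal markers, 7 were higher on the keratinocyte-labelled arrays, with 21641 to 22342 against 599 to 664. Each direction below is therefore given for the arrays as labelled. Markers of other cells were sparse in the table. The measured macrophage genes, 2 of 5 listed, ran in opposite directions (summed signal 48.0 to 75.3 on the keratinocyte-labelled arrays and 349 to 414 on the MEF-labelled arrays). The 2 measured skeletal muscle genes of 4 were higher on the keratinocyte-labelled arrays (146 to 246 against 43.4 to 52.4), as were 2 of 3 measured cartilage genes of 4 listed (533 to 593 against 264 to 279). The 1 measured endothelial gene of 4 was higher on the MEF-labelled arrays (9.90 to 12.3 against 28.0 to 33.3), the 1 measured neural gene of 4 did not pass (81.9 to 96.1 against 83.1 to 107), and 0 of 4 melanocyte and 0 of 4 erythroid genes were measured. The part of such cells in the results was not tested.

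Before each S phase, the origin recognition complex, with the factors encoded by Cdc6 and Cdt1, loads the MCM2-7 helicase onto origins, a step called licensing, which geminin restrains. Kinases then fire the licensed origins by joining Cdc45 and the GINS complex to the helicase, and polymerases, a sliding clamp and its loader copy both strands. Many of these genes are classical targets of the E2F factors, which act when the retinoblastoma protein is released at the passage from G1 to S phase. In bulk RNA, a larger share of cells in S phase and more transcript per cell cannot be told apart, so the differences below are of RNA signal and not of replication.

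Most replication genes had a higher signal on the MEF-labelled arrays, which were those with high Cdh1. In a limma fit over all probe sets with 1 symbol, 47 of the 57 genes were higher on the MEF-labelled arrays at an adjusted p under 0.05, where 41.7% of all genes tested were (74.5% passed in either direction). Only Orc2 and Orc3, 2 genes of 57, were higher on the keratinocyte-labelled arrays, where 32.9% of all genes were, and 8 genes did not pass. The 3 arrays of one group lay entirely above the other for 46 genes in the direction of the MEF-labelled arrays, against 43.4% of all genes, and for 2 genes in the other, against 35.0%. The median log2 difference, MEF-labelled arrays minus keratinocyte-labelled arrays, was 0.87 over the replication genes and 0.12 over all genes. It ranged from -0.67 for Orc2 to 2.58 for Gins1. Of the 47 genes, 25 differed by at least 1 on the log2 scale, that is at least 2-fold as measured, where 14.4% of all genes did so in that direction. The differences were thus broad across the list, and 32 genes differed by less than this or ran the other way.

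**Figure D1:**
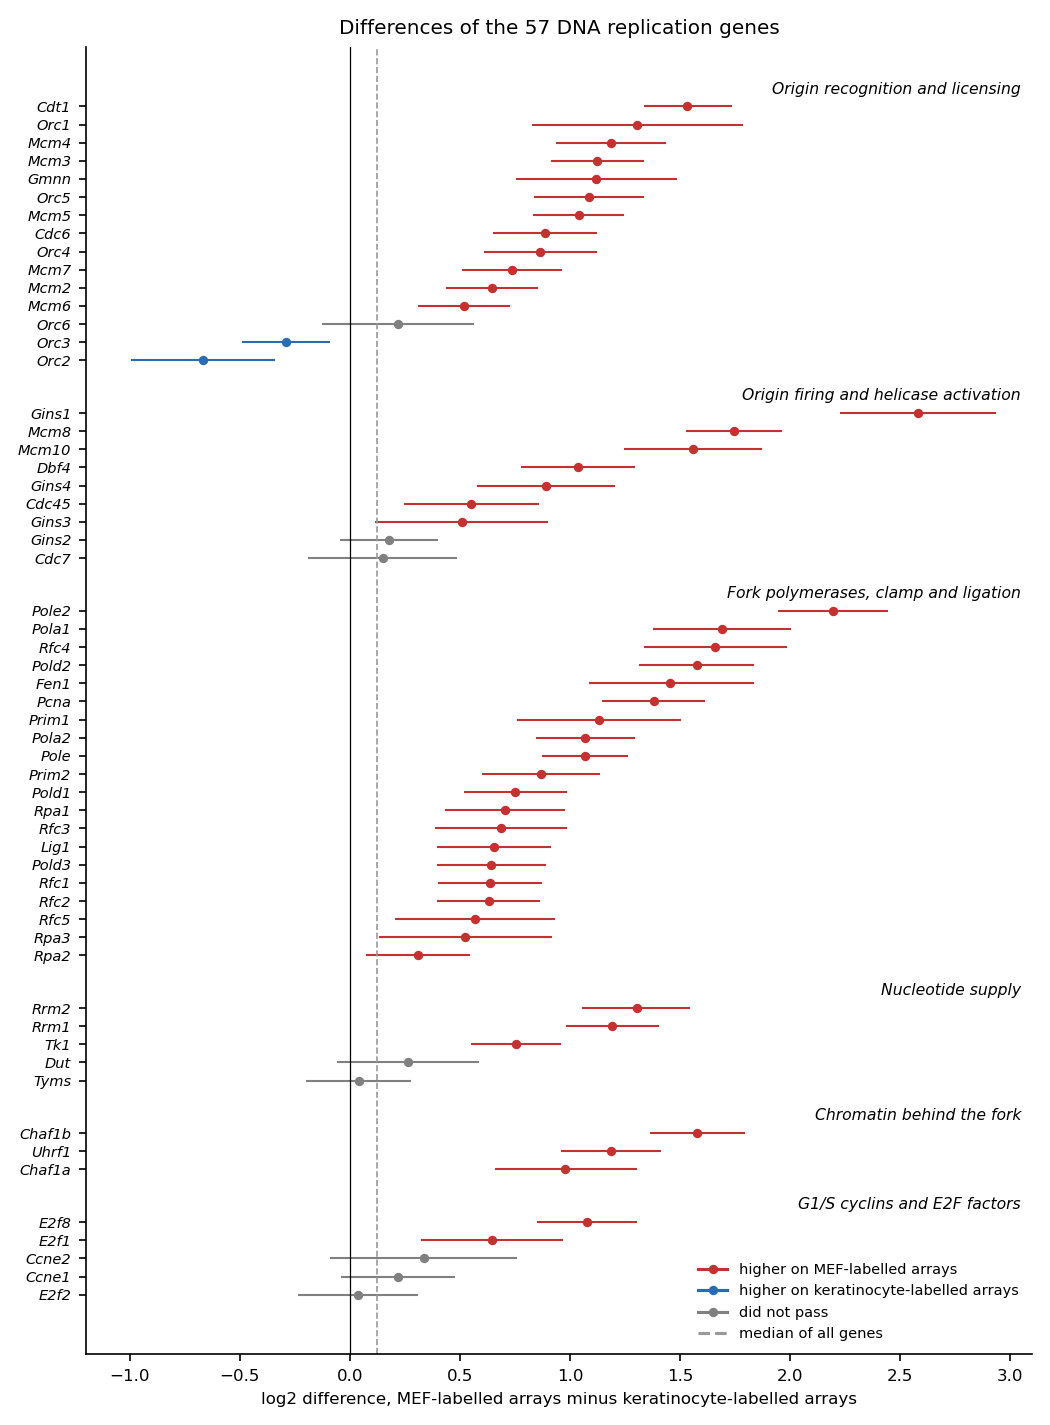
Log2 difference of each of the 57 DNA replication genes (horizontal axis, MEF-labelled arrays minus keratinocyte-labelled arrays), grouped by role, with points for the limma estimate, bars for its 95% confidence interval and a dashed line for the median of all genes at 0.12. The points lie to the right of 0 except for Orc2 and Orc3, and 8 genes shown in grey did not pass.

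**Figure D2:**
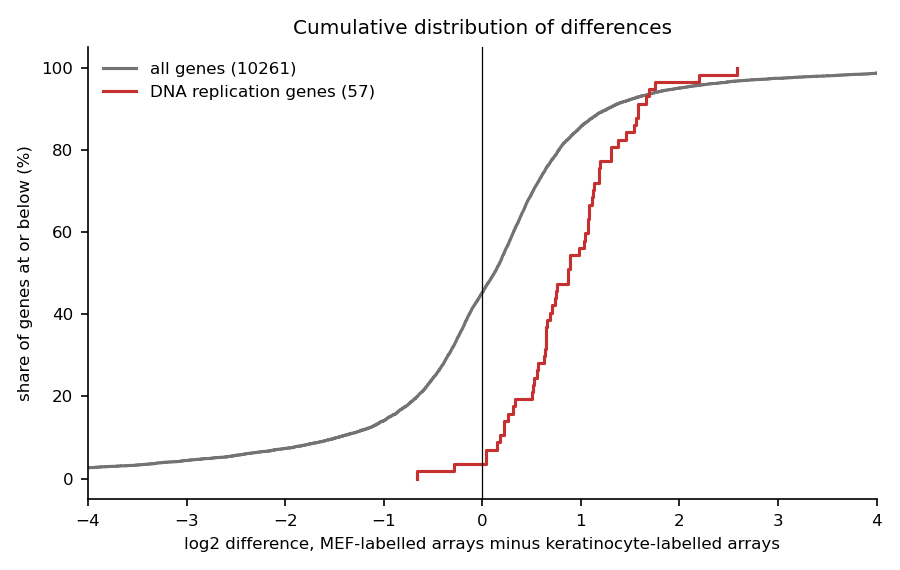
Cumulative share of genes (vertical axis, %) at or below a given log2 difference (horizontal axis) for the 57 DNA replication genes and for all 10261 genes, cut at 4 on either side. The curve of the replication genes is displaced to the right through its middle, with a median of 0.87 against 0.12. It runs only from -0.67 to 2.58, whereas that of all genes runs beyond the cut, from -9.88 to 9.98.

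A background level was set on each array from 10 olfactory receptor probe sets, as their 95th percentile, which was 5.49 to 5.92 on the keratinocyte-labelled arrays and 6.05 to 6.58 on the MEF-labelled arrays. It is rough and leans on 1 bright probe set, Olfr1174. Of the 57 genes, 32 were above it on all 6 arrays and 8 on none. The 8 were Orc1, Gmnn, Cdc7, Gins2, Gins3, Rpa3, Ccne2 and E2f2, and no fold is given for them. Without Olfr1174 the level was 5.25 to 5.58 over the 6 arrays, 39 genes were above it on all arrays and 6 on none. A fold is a lower bound where the dimmer group was not above background on any of its arrays. For Orc5, Gins1, Mcm10, Rfc3 and Pole2 the brighter group was above background on 1 array only, so their lower bounds are weak. For Orc3, Prim1, Prim2, Pold3 and Chaf1b only some arrays of a group were above it, and their folds are as measured. Rpa2, Fen1 and Tyms were also above it on only some arrays of a group, and for them log2 values alone are given.

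Of 15 genes of origin recognition and licensing, 12 were higher on the MEF-labelled arrays, 2 on the keratinocyte-labelled arrays and 1 did not pass. Of all genes, 41.7% and 32.9% were called in these directions. Cdt1, which brings the MCM helicase to origins, showed the largest difference of the role. Its log2 signals were 6.42, 6.39 and 6.50 on the keratinocyte-labelled arrays and 7.95, 7.94 and 8.01 on the MEF-labelled arrays. It was 2.9-fold higher on the latter, a log2 difference of 1.53 with a standard error (SE) of 0.08 (limma, adjusted p = 8.35e-07). Gmnn, which encodes the Cdt1 inhibitor geminin, rose with it, at 2.83, 2.80 and 3.33 against 4.26, 4.07 and 3.98 (log2 difference 1.12, limma, adjusted p = 0.000265), although no value was above background. Cdc6, the ATPase that acts with the origin recognition complex, stood at 5.71, 6.01 and 5.88 and 6.77, 6.75 and 6.75, 1.85-fold higher on the MEF-labelled arrays (limma, adjusted p = 7.48e-05). Loader, inhibitor and ATPase transcripts thus lay on the same side, with no array of one group inside the range of the other.

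The 6 subunits of the MCM2-7 helicase all rose on the MEF-labelled arrays and none of their groups overlapped. Among all genes, 41.7% were higher there and 43.4% lay apart in that direction. All 6 were above background on all arrays. Mcm4 had signals of 6.92, 6.65 and 6.94 on the keratinocyte-labelled arrays and 7.97, 8.04 and 8.06 on the MEF-labelled arrays. It was 2.28-fold higher on the latter (SE 0.11, limma, adjusted p = 1.7e-05). Mcm3 stood at 7.67, 7.73 and 7.61 and 8.76, 8.88 and 8.74, 2.18-fold higher (limma, adjusted p = 8.2e-06). Mcm5 was 2.05-fold, Mcm7 1.67-fold, Mcm2 1.56-fold and Mcm6 1.43-fold higher, so that subunits which form 1 ring with equal copies differed in size of change but not in direction. The smallest, Mcm6, had 7.63, 7.49 and 7.64 against 8.07, 8.09 and 8.16, still apart by more than the spread of either group (limma, adjusted p = 0.000896).

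The origin recognition complex was the exception among the complexes. Orc1, its cell cycle-regulated large subunit, had 3.13, 2.80 and 3.23 on the keratinocyte-labelled arrays and 4.18, 4.83 and 4.07 on the MEF-labelled arrays, a log2 difference of 1.31 (limma, adjusted p = 0.000527) between signals that were all below background. Orc4 and Orc5 were higher on the MEF-labelled arrays as well, 1.82-fold and at least 1.62-fold (limma, adjusted p = 0.000136 and 3.03e-05). Orc5 was above background on only 1 MEF-labelled array and on no keratinocyte-labelled array. Orc2 ran the other way, with 6.62, 6.10 and 6.29 on the keratinocyte-labelled arrays against 5.56, 5.69 and 5.75 on the MEF-labelled arrays. On the log2 scale it was 0.67 higher on the keratinocyte-labelled arrays (SE 0.14, limma, adjusted p = 0.00269), and no fold is given, because the lower group was below background and the bound came to less than 1. Orc3 had 6.71, 6.76 and 6.63 against 6.39, 6.43 and 6.42, 1.22-fold higher on the keratinocyte-labelled arrays (limma, adjusted p = 0.0141), a call that ended with the replicate number as a block (adjusted p = 0.0508). For both genes every keratinocyte-labelled array lay above every MEF-labelled array. Orc6, at 6.65, 6.39 and 6.83 and 6.60, 6.96 and 6.98, overlapped between the groups (95% confidence interval of the difference -0.12 to 0.56, limma, adjusted p = 0.204). Within each array, Orc2 minus Orc5 on the log2 scale was 1.38, 0.74 and 0.97 on the keratinocyte-labelled arrays and -0.84, -0.86 and -0.47 on the MEF-labelled arrays. This pair was chosen after its values were seen, and since probe sets differ in brightness only the shift between groups can be read from it.

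**Figure D3:**
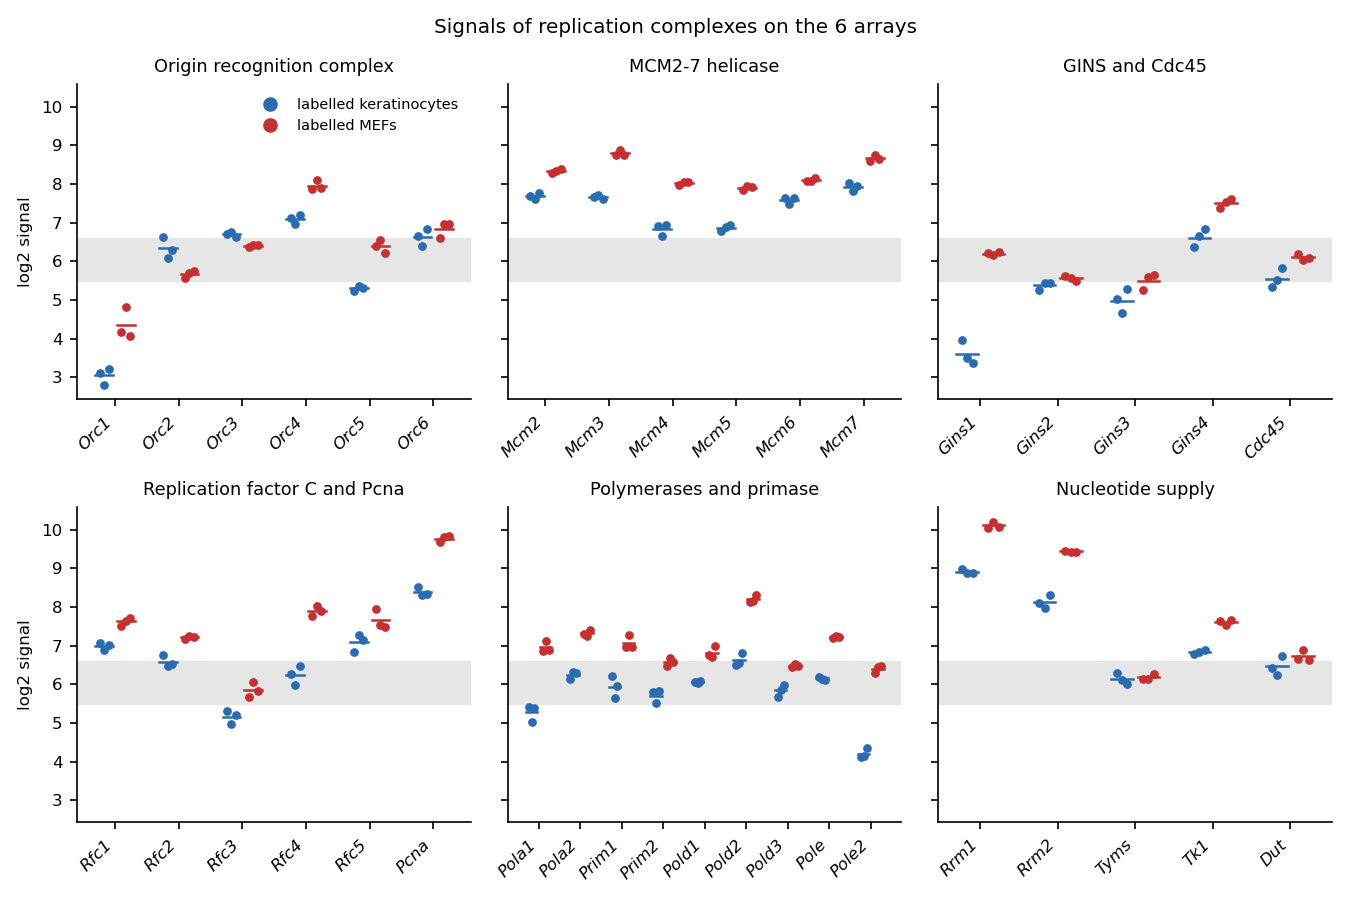
Log2 signal (vertical axis) of the subunits of 6 groups of replication genes on the 3 keratinocyte-labelled arrays (blue) and the 3 MEF-labelled arrays (red), with points for single arrays, short lines for group means and a grey band for the range of the background level over the 6 arrays. The MCM2-7 subunits all lie above the band and higher in red, whereas Orc2 and Orc3 lie higher in blue and Tyms overlaps.

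The start regions of these genes were searched for short sequence elements, which played no part in the choice of the genes. RefSeq windows of 300 bases, from 250 before to 50 after the annotated start (GRCm38.p6), were on hand for 48 of the 57 genes, as 59 windows. Those of Gins1, Gins2, Gins4, Ccne2, Prim2, Rfc2, Gmnn, Mcm4 and Pole were not used here. E2F-type letters, any of TTTCCCGC, TTTGGCGC, TTTCGCGC and TTTGCCGC on either strand, stood in 30.5% of the 59 windows and in 2.26% of all 32851 windows. By gene, 18 of 48 held them, 16 of 40 among those higher on the MEF-labelled arrays, 1 of 2 among those higher on the keratinocyte-labelled arrays and 1 of 6 among those that did not pass. Licensing genes held them most often, 8 of 13, and 0 of 5 nucleotide supply genes did. The CCAAT box, a short element of many promoters, stood in 54.2% of the windows against 37.4% of all, and the cell cycle homology element (TTTGAA or TTCGAA) in 20.3% against 19.2%. Letters in a window are a description and show no binding.

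The first 280 bases of 6 windows are shown, with E2F-type letters in capitals and the strand of the gene read 5′ to 3′. Mcm6, Mcm3 and Mcm5 were picked for their letters and are 3 of the 4 helicase subunits with at least 2 matches. They do not stand for the whole helicase, as the Mcm2 window held 0 matches and no Mcm4 window was used. Pole2 stands for the largest difference among genes with a window, and Orc2 and Orc3 for the opposite direction. In Mcm6 and Mcm5 a pair of matches on opposite strands shares letters, and a further match of Mcm3, at base 39 after the start, lies beyond the bases shown.
Mcm6 (chr1:128359676-128359955, minus strand): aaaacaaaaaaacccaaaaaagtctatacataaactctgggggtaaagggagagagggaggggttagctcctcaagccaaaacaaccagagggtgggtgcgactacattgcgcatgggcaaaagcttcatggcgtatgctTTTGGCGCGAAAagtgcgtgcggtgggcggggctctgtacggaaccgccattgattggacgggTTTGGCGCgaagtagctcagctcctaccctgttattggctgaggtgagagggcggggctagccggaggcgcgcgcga
Mcm3 (chr1:20820283-20820562, minus strand): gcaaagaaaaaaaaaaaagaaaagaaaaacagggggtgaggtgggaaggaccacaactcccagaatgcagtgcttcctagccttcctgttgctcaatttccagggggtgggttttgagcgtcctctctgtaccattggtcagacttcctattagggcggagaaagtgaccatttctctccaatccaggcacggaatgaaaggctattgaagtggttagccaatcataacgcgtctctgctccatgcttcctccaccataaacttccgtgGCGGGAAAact
Mcm5 (chr8:75109259-75109538, plus strand): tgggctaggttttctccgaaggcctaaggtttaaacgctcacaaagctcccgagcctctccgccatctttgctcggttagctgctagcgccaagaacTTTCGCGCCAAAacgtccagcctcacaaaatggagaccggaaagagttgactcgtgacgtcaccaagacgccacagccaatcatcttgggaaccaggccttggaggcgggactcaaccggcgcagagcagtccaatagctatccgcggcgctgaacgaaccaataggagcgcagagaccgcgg
Pole2 (chr12:69228161-69228440, minus strand): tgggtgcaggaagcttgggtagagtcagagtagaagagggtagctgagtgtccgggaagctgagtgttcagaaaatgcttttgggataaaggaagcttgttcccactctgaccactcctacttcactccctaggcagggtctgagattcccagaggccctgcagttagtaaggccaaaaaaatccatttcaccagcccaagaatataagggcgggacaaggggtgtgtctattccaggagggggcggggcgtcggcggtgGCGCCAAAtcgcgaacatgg
Orc2 (chr1:58505080-58505359, minus strand): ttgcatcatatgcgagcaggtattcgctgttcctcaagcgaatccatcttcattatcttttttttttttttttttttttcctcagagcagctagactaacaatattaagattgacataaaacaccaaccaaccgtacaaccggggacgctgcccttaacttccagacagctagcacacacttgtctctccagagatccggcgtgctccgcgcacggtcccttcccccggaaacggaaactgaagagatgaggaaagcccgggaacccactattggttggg
Orc3 (chr4:34614913-34615192, minus strand): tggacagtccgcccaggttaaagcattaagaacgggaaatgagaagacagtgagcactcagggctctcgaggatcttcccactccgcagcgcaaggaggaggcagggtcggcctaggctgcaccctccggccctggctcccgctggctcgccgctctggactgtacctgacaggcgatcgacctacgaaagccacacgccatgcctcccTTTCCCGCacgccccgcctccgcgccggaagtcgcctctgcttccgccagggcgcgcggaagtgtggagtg
Counted from the start, the matches began at bases -110, -106 and -47 in Mcm6, at -153 and -149 in Mcm5, at 20 in Mcm3, at 11 in Pole2 and at -41 in Orc3. The Orc2 window, of a gene higher on the keratinocyte-labelled arrays, held none of these letters, but the Orc3 window did, and so did 1 gene that did not pass.

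Of 9 genes of origin firing and helicase activation, 7 were higher on the MEF-labelled arrays, against 41.7% of all genes, and 2 did not pass. Gins1, a subunit of the GINS complex, had the largest difference of all 57 genes. Its signals were 3.97, 3.51 and 3.37 on the keratinocyte-labelled arrays, all below background, and 6.21, 6.15 and 6.23 on the MEF-labelled arrays, of which 1 was above it. The measured log2 difference was 2.58 (SE 0.15, limma, adjusted p = 1.21e-06), and against background it came to at least 1.41-fold higher. Its partners in the same 4-part complex differed less. Gins4 was 1.86-fold higher (limma, adjusted p = 0.00041), from 6.36, 6.65 and 6.83 to 7.37, 7.52 and 7.62. Gins2 did not pass, at 5.26, 5.45 and 5.44 against 5.63, 5.57 and 5.49 (95% confidence interval -0.04 to 0.40), although its groups did not overlap. Gins3 stood at 5.02, 4.67 and 5.28 against 5.26, 5.59 and 5.64 and passed with overlapping groups (limma, adjusted p = 0.0248). Its call ended when keratinocyte-labelled replicate 1 or 2, or MEF-labelled replicate 2 or 3, was left out, with log2 differences of 0.52, 0.35, 0.46 and 0.44.

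Mcm8, a relative of the MCM subunits that acts in recombination, and Mcm10, which helps to activate the helicase, followed Gins1 in size within this role. Mcm8 had 5.12, 5.12 and 5.21 on the keratinocyte-labelled arrays and 6.80, 7.01 and 6.87 on the MEF-labelled arrays, at least 2.29-fold higher (SE 0.09, limma, adjusted p = 6.75e-07). Mcm10 had 4.79, 4.56 and 5.05 and 6.31, 6.47 and 6.30, at least 1.58-fold higher (limma, adjusted p = 1.27e-05). Both were below background on each keratinocyte-labelled array. On the MEF-labelled arrays Mcm8 was above it on all 3, but Mcm10 on only 1. Of the kinase that fires origins, Dbf4, the regulatory subunit, was 2.05-fold higher on the MEF-labelled arrays, from 6.10, 6.12 and 6.40 to 7.19, 7.33 and 7.20 (limma, adjusted p = 5.02e-05). Cdc7, the catalytic subunit, did not pass at signals below background, 4.19, 3.66 and 3.72 and 3.98, 4.09 and 3.95 (95% confidence interval -0.19 to 0.48). Without keratinocyte-labelled replicate 1, the highest of them, it did (log2 difference 0.32, adjusted p = 0.0189). Cdc45, which joins the helicase with GINS, had 5.34, 5.52 and 5.82 against 6.19, 6.04 and 6.10, a log2 difference of 0.55 (limma, adjusted p = 0.00516). No fold is given for Cdc45, because its brighter group, the MEF-labelled arrays, was below background throughout. Of the keratinocyte-labelled values 1 was above it.

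All 20 genes of the fork were higher on the MEF-labelled arrays, against 41.7% of all genes. They include the polymerases, clamp, clamp loader, single-strand binding protein and ligase. Pole2, a subunit of the leading strand polymerase epsilon, had the largest difference among them. Its signals were 4.11, 4.16 and 4.37 on the keratinocyte-labelled arrays, all below background. They were 6.28, 6.46 and 6.47 on the MEF-labelled arrays, of which 1 was above it. The measured log2 difference was 2.19 (SE 0.11, limma, adjusted p = 3.93e-07), and against background it came to at least 1.63-fold. The catalytic subunit gene Pole was 2.1-fold higher, from 6.20, 6.14 and 6.12 to 7.20, 7.24 and 7.23 (limma, adjusted p = 6.69e-06). Pola1, the catalytic subunit of polymerase alpha, which starts each new strand, had 5.43, 5.02 and 5.38 and 6.87, 7.13 and 6.90, at least 2.41-fold higher (limma, adjusted p = 8e-06). Its partner gene Pola2 and the primase genes Prim1 and Prim2 were 2.1-fold, 2.19-fold and 1.82-fold higher. Of the lagging strand polymerase delta, Pold2 rose 2.98-fold, from 6.49, 6.56 and 6.80 to 8.12, 8.15 and 8.31 (limma, adjusted p = 4e-06), and Pold1 and Pold3 1.68-fold and 1.56-fold. These subunits all lay higher on the MEF-labelled arrays without overlap, and only Pole4, a small subunit outside the 57 genes, ran the other way.

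Rfc4, a subunit of the clamp loader, was the third largest of the fork genes, with 6.26, 5.99 and 6.48 against 7.76, 8.04 and 7.91, 3.16-fold higher (SE 0.14, limma, adjusted p = 1.19e-05). The other loader subunits rose less, Rfc1 1.55-fold, Rfc2 1.55-fold, Rfc3 at least 1.11-fold and Rfc5 1.48-fold. Rfc3 was above background on only 1 MEF-labelled array and on no keratinocyte-labelled array. Of these subunits, only Rfc5 lost its call under a per-gene test without shared variances (adjusted p = 0.0582). Pcna, the sliding clamp itself, had 8.53, 8.30 and 8.35 on the keratinocyte-labelled arrays and 9.67, 9.80 and 9.84 on the MEF-labelled arrays, 2.6-fold higher (limma, adjusted p = 4.66e-06). The other probe set of Pcna gave 2.54-fold, and both read nearly the same signal on every array. Fen1, which trims the flaps of Okazaki fragments, went from 5.21, 4.97 and 5.63 to 6.73, 6.64 and 6.81, a log2 difference of 1.46 (limma, adjusted p = 6.22e-05). Only 1 of its 3 keratinocyte-labelled values was above background. Lig1, which seals the fragments, was 1.57-fold higher, from 6.39, 6.35 and 6.42 to 6.83, 7.13 and 7.17 (limma, adjusted p = 0.000825).

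Replication protein A, which coats single-stranded DNA, held the smallest differences of the fork in Rpa2 and Rpa3. Rpa1 was 1.63-fold higher on the MEF-labelled arrays, with 6.52, 6.76 and 6.87 against 7.32, 7.44 and 7.51 (limma, adjusted p = 0.000672). Rpa2 had 5.95, 5.95 and 5.77 against 6.10, 6.20 and 6.31 (log2 difference 0.31, limma, adjusted p = 0.022), but it did not pass with median centring (adjusted p = 0.0841), with quantile normalization (0.071) or with the replicate block (0.0613). Leaving out keratinocyte-labelled replicate 3, or MEF-labelled replicate 2 or 3, also ended its call, at log2 differences of 0.25, 0.31 and 0.26. Rpa2 was above background on 3 keratinocyte-labelled arrays but on only 1 MEF-labelled array. The brighter probe set of Rpa3 passed with overlapping groups below background, 3.97, 3.84 and 4.49 against 4.69, 4.48 and 4.71 (log2 difference 0.52, limma, adjusted p = 0.0219). It did not pass without keratinocyte-labelled replicate 1 or 2 or without MEF-labelled replicate 1 or 3, where the log2 difference was 0.46, 0.40, 0.49 and 0.48. The dimmer probe set of Rpa3, at a log2 difference of 1.00, did not overlap (limma, adjusted p = 0.000274).

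Of 5 genes of nucleotide supply, 3 were higher on the MEF-labelled arrays, against 41.7% of all genes, and 2 did not pass. Ribonucleotide reductase, which makes deoxyribonucleotides, is built from the products of Rrm1 and Rrm2. Rrm2 had 8.10, 7.98 and 8.31 on the keratinocyte-labelled arrays and 9.44, 9.43 and 9.43 on the MEF-labelled arrays, 2.47-fold higher (SE 0.10, limma, adjusted p = 8.66e-06). Rrm1 had 8.98, 8.89 and 8.88 and 10.05, 10.21 and 10.07, 2.29-fold higher (limma, adjusted p = 6.04e-06). Both subunit genes were above background on all 6 arrays, and their groups did not overlap. Tk1, the thymidine kinase of the salvage route, was 1.69-fold higher, with 6.80, 6.85 and 6.90 against 7.63, 7.52 and 7.65 (limma, adjusted p = 8.64e-05), and its dimmer probe set, below background, ran the same way with a log2 difference of 0.86. Tyms, the thymidylate synthase of the de novo route, had 6.28, 6.12 and 6.02 and 6.14, 6.14 and 6.26, with overlapping groups and a 95% confidence interval of -0.19 to 0.27 for the difference (limma, adjusted p = 0.738). Dut, which removes dUTP, had 6.42, 6.25 and 6.72 and 6.66, 6.89 and 6.63 (95% confidence interval -0.05 to 0.58). Tyms and Dut therefore did not pass where reductase and salvage kinase did. Dut passed, however, without keratinocyte-labelled replicate 3 (log2 difference 0.39, adjusted p = 0.025). Tyms and Dut do not stand for the whole of thymidylate supply. Of 20 other nucleotide enzymes measured, 14 were higher on the MEF-labelled arrays, 1 was lower and 5 did not pass. Among the 14 were Dctd, 2.16-fold higher, and Shmt1, at least 1.75-fold higher (limma, adjusted p = 9.15e-06 and 8.81e-06).

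The 3 genes that restore chromatin behind the fork were all higher on the MEF-labelled arrays, against 41.7% of all genes. Chaf1b, a subunit of the histone chaperone CAF-1, had 5.88, 5.90 and 6.03 on the keratinocyte-labelled arrays and 7.49, 7.57 and 7.49 on the MEF-labelled arrays, 2.99-fold higher (SE 0.09, limma, adjusted p = 9.73e-07). Its partner Chaf1a had 6.02, 5.94 and 5.85 against 6.62, 7.10 and 7.03, 1.97-fold higher (limma, adjusted p = 0.000272). Uhrf1, which guides maintenance methylation to newly copied DNA, had 7.72, 7.56 and 7.73 and 8.75, 8.88 and 8.94, 2.28-fold higher (limma, adjusted p = 9.87e-06). None of the 3 overlapped between the groups, where 43.4% of all genes lay apart in this direction.

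The regulators of the passage from G1 to S phase gave 2 calls in 5, both higher on the MEF-labelled arrays, a share close to the 41.7% of all genes. E2f8, a repressor among the E2F factors, had 6.16, 6.05 and 6.13 on the keratinocyte-labelled arrays and 7.07, 7.31 and 7.19 on the MEF-labelled arrays, 2.11-fold higher (limma, adjusted p = 1.79e-05). E2f1, an activator, had 5.79, 6.12 and 6.30 and 6.84, 6.64 and 6.68, 1.57-fold higher (limma, adjusted p = 0.00304). E2f2, another activator, stayed below background and overlapped, at 3.92, 4.18 and 4.04 and 4.27, 4.03 and 3.96 (95% confidence interval -0.23 to 0.31). The cyclin E genes, whose products drive the entry into S phase, did not pass either. Ccne1 had 7.41, 7.53 and 7.70 and 7.90, 7.69 and 7.71 (95% confidence interval -0.03 to 0.47), and passed without keratinocyte-labelled replicate 3 (log2 difference 0.30, adjusted p = 0.0477). Ccne2 had 4.49, 4.06 and 4.39 and 4.30, 4.97 and 4.67 (95% confidence interval -0.09 to 0.76), and passed without MEF-labelled replicate 1 (log2 difference 0.51, adjusted p = 0.0251).

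Across the arrays of a group the replication genes held close together. The mean log2 signal over the 57 genes was 6.07, 5.99 and 6.16 on the keratinocyte-labelled arrays and 6.90, 7.00 and 6.96 on the MEF-labelled arrays. The lowest and highest array of each group differed by less than the distance between the groups. The median SD of a gene among replicates was 0.15 on the keratinocyte-labelled arrays and 0.10 on the MEF-labelled arrays, near the 0.14 and 0.11 of all genes. Among the keratinocyte-labelled arrays, replicate 3 was the highest for 32 of the 57 genes, and for 37.4% of all genes, and replicate 2 the lowest for 30, and for 39.3% of all genes. Among the MEF-labelled arrays, replicate 1 was the lowest for 33 of 57, and for 50.4% of all genes.

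Other genes of the pathway, from lists kept apart from the 57, are given by their counts, to be read beside the 41.7% of all genes that were higher on the MEF-labelled arrays and the 32.9% higher on the keratinocyte-labelled arrays. Of 10 measured licensing and firing factors of 13 listed, 9 rose there and 1 did not pass (median log2 difference 0.60), and the largest change was that of Rif1, which governs the timing of origins, at least 2.8-fold higher with 5.52, 5.22 and 5.22 against 7.08, 7.35 and 7.13. Of 17 measured fork factors of 19 listed, 14 rose, 1 fell and 2 did not pass (median 0.73). Rnaseh2a, a subunit of an enzyme that removes ribonucleotides from DNA, was 2.75-fold higher, and Pole4, a small subunit of polymerase epsilon, was lower there by 0.36 on the log2 scale. Of 13 measured checkpoint genes of 15 listed, 12 rose and 1 did not pass (median 0.87), led by Fancd2, a DNA crosslink repair gene, with a log2 difference of 1.57 between signals below background.

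Nucleotide enzymes beyond the 5 gave 14 of 20 measured genes (25 listed) higher on the MEF-labelled arrays, 1 lower and 5 that did not pass (median 0.54). Mthfd1, a folate enzyme, was 3.02-fold higher with 6.79, 6.55 and 6.62 against 8.18, 8.29 and 8.28, while Samhd1, which degrades deoxyribonucleotides, was 1.41-fold higher on the keratinocyte-labelled arrays. Nucleosome assembly and methylation maintenance gave 7 of 13 (14 listed) higher, 1 lower and 5 that did not pass (median 0.49), with the histone acetyltransferase gene Hat1 3.19-fold higher and the histone-binding gene Rbbp4 1.7-fold lower on the MEF-labelled arrays. Of 18 measured mitosis genes of 19 listed, 14 rose and 4 did not pass (median 0.74), and Bub1, a spindle checkpoint kinase, was 2.69-fold higher. In the RB, E2F and G1 kinase list the calls ran both ways in shares near those of all genes, with 13 of 26 measured genes (30 listed) higher on the MEF-labelled arrays, 7 higher on the keratinocyte-labelled arrays and 6 that did not pass (median 0.39). Mybl2, a factor of S phase and mitosis, was 3.34-fold higher on the former. Cdkn1c, which encodes the cyclin-dependent kinase inhibitor p57, had 8.46, 8.04 and 8.12 on the keratinocyte-labelled arrays against 5.69, 5.63 and 5.59 on the MEF-labelled arrays, at least 3.54-fold higher on the keratinocyte-labelled arrays (limma, adjusted p = 3.51e-07).

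**Figure D4:**
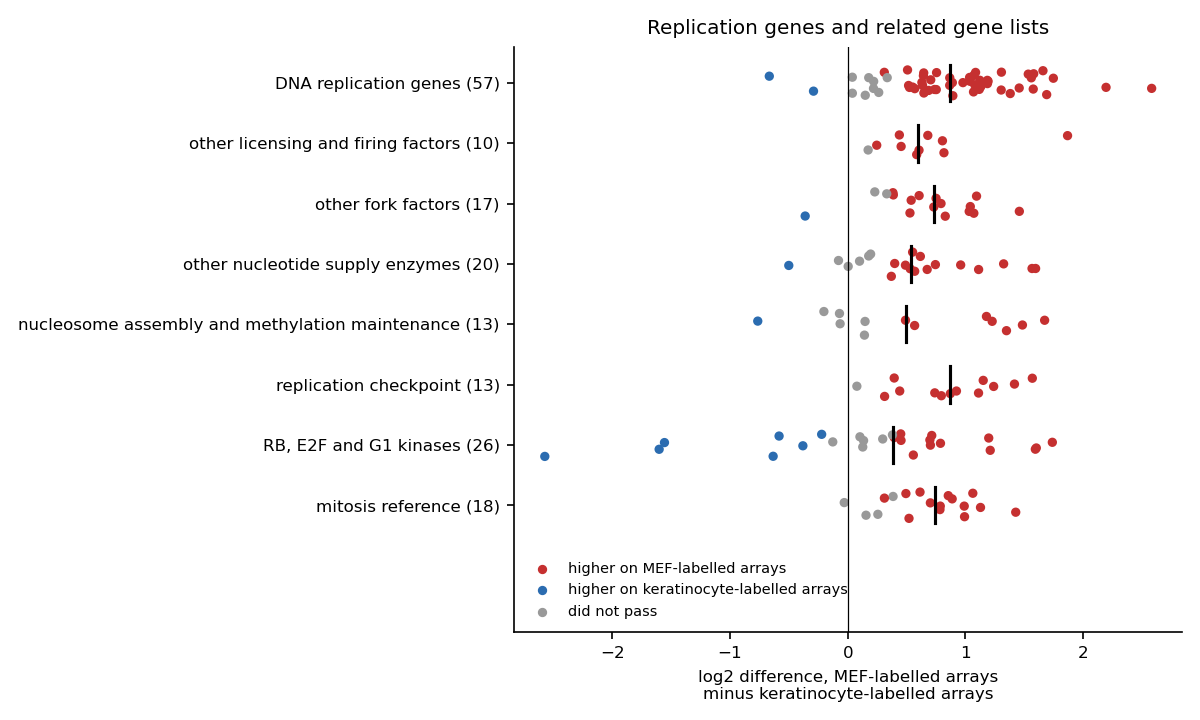
Log2 difference (horizontal axis, MEF-labelled arrays minus keratinocyte-labelled arrays) of the 57 DNA replication genes and of the measured genes of 7 related lists, with each point a gene, coloured by its call, vertical jitter without meaning and a black line at each median. Medians run from 0.39 for the RB, E2F and G1 kinase list to 0.87 for the replication and checkpoint genes, and Cdkn1c is the point farthest to the left.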

How the data were processed

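RNA of 3 samples labelled keratinocytes and 3 labelled MEF was hybridised to MoGene-1_0-st arrays, which read a transcript with a set of probes. The table the authors deposited holds log2 values for 15648 probe sets, RMA normalized with oligo per their methods (1.46.0 in the submitters' processing notes). RMA brings arrays to 1 distribution and compresses dim signals. No source used here says how probe sets were chosen or over which arrays RMA was run.

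Groups came from the sample labels. The platform table paired 11288 probe sets with 1 symbol, 645 with several and had no entry for 3715, and 11274 of the first were found in RefSeq by gene identifier. All 11288 entered 1 unblocked linear model (limma 3.58.1, R 4.3.3, functions lmFit and eBayes). Calls were made at 0.05 after Benjamini-Hochberg adjustment over these probe sets. Of several probe sets the brightest stood for its gene (572 of 10261 genes had several). Background on an array was set at the 95th percentile of the signals of 10 olfactory receptor genes' probe sets. Where the dimmer group lay at background on each array, its level was replaced by the higher of background and signal, which gives a lower bound for the fold. The fit was tested on simulated data first. Because nothing says that replicates came from separate litters, p-values measure the spread between these arrays, and their number limits the precision.

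The 57 genes, the pathway and marker lists, the tests and the alternatives were chosen with earlier results of these data known, so none is independent evidence of a direction. All 57 genes are named, with values on each array at least for the 3 called genes of each role with the largest difference, those called against the role's majority and, in roles with 3 or fewer calls, those that did not pass. Of each pathway list the called gene with the largest difference in each direction is named. Alternatives were median centring, quantile normalization, leaving out dim probe sets by either of 2 filters, robust eBayes with an intensity trend, a per-gene test without shared variances (which the methods name in their general statistics, whereas they name limma for the arrays), other treatments of probe sets, a minimum log2 difference of 1, a replicate block and leaving out each array. The background level without its brightest probe set was added after the data were seen. No joint deviation of same-numbered arrays was seen. Promoter letters were searched in RefSeq windows of GRCm38.p6 with Python 3.11.15, and figures were drawn with matplotlib 3.10.9.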

Additional observations from a re-analysis of the deposited data

How the results depend on the processing

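No called replication gene changed direction in these alternatives. Of the 49, 44 passed in each of the 15 alternatives without a minimum difference in which they were tested, and the exceptions were Orc3, Gins3, Rfc5, Rpa2 and Rpa3. Between 36 genes, with 15 dim ones left out, and 47 were higher on the MEF-labelled arrays in the alternatives that kept all arrays and set no minimum difference. In those alternatives 36.4% to 47.1% of all genes were higher there, and 30.4% to 37% on the keratinocyte-labelled arrays. Leaving out single arrays gave 44 to 48 genes higher on the MEF-labelled arrays, against 36.5% to 40.9% of all genes. It gave 2 on the keratinocyte-labelled arrays, against 30% to 32.2% of all genes, and median log2 differences of 0.80 to 0.91. Median centring lowered the median to 0.77 and that of all genes to 0.02.

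With a minimum log2 difference of 1, 25 genes were called higher on the MEF-labelled arrays and 0 on the keratinocyte-labelled arrays, because the threshold itself is stricter. The shares of all genes were 14.4% and 14.1%. That 0 is a count of limma calls, and 2 genes passed on the keratinocyte-labelled arrays without the minimum. Same-numbered arrays did not deviate together (correlations of -0.231, -0.209 and -0.0322, against -0.0323 to 0.214 for differently numbered arrays). Deviations from a mean of 3 arrays constrain each other, and whether same-numbered arrays shared a preparation was not tested. With the replicate block, 46 genes were higher on the MEF-labelled arrays and 1 on the keratinocyte-labelled arrays, the losses being Rpa2 and Orc3. The per-gene test without shared variances left 44 and 2, the losses being Gins3, Rfc5 and Rpa3. For Tyms and E2f2, which passed nowhere in these alternatives, the difference changed sign: with median centring to -0.0575 for Tyms and -0.0579 for E2f2, and with quantile normalization to -0.0580 for Tyms. Leaving out single arrays gave -0.0221 to 0.111 for Tyms, negative without keratinocyte-labelled or MEF-labelled replicate 3, and -0.0531 to 0.104 for E2f2, negative without replicate 1 of either label. The cause was not tested. The rough background level limits what can be said of the dim genes.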
